A study of Mus musculus with 16 samples.

Results

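The odorant receptor genes of mouse chromosome 11 were described across GFP+ and GFP- cells of the olfactory mucosa. Members were the genes whose probe identifier places them on chromosome 11 and whose symbol is Olfr followed by a number. The position and symbol gave 78 genes. The rule leaves out 1 of them, so 77 members remained, of 1080 odorant receptor genes and 19505 genes on the array. All 77 matched a RefSeq gene, and 74 carry a family name of the MOR kind among their RefSeq synonyms, which groups receptors by likeness of their proteins. No member had more than 1 probe.

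Odorant receptors are G protein-coupled receptors in the cilia of olfactory sensory neurons. A mature neuron transcribes mainly a single receptor gene, from either of its alleles, and that receptor decides which odorants the neuron answers and where its axon ends in the olfactory bulb. Receptor genes lie in clusters along the chromosomes, where related genes often sit side by side. In a bulk sample a receptor's mRNA level reflects both how many neurons chose it and how much mRNA each of them holds, and fewer cells and less RNA per cell cannot be told apart here.

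The series is an assay for receptors of neurons that answer an odor in the living animal. All mice carried S100a5-tauGFP, a reporter whose GFP is driven by the S100a5 promoter, which is on in sensory neurons that have been active. Mice of both sexes, aged 7 to 12 weeks, spent 40 hours in chambers with clean air flowing at 3.1 L/min, and from hour 26 a 10-second pulse came every 20 min, of indole/ionone in the odor arm and of filtered air in the vehicle arm. The sources used here do not give which ionone was used, at what dose, or whether it was mixed with indole. Mucosa of 3 mice was pooled, dissociated and sorted into GFP+ and GFP- cells, and each fraction was hybridised to a Clariom S array from 50 to 100 ng of total RNA. This gave 4 groups of 4 samples: GFP+ and GFP- cells of 4 odor pools, and GFP+ and GFP- cells of 4 vehicle pools. The values are log2 levels, so a difference of 1 is a doubling, and no result sets levels of different genes against each other, since each rests on its own probe.

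Correlations between arrays were 0.974 to 0.987 within a group and 0.946 to 0.965 between fractions. Medians of the 23 background probes ran from 5.63 to 6.05, and a level under this range is read here as not above background. S100a5 lay at 16.17 to 16.50 in GFP+ and 14.35 to 15.31 in GFP- cells of odor pools. In vehicle pools it lay at 16.04 to 16.12 in GFP+ and 14.39 to 15.045 in GFP- cells. Its odor minus vehicle difference in GFP+ cells was 0.22 ± 0.12 (adjusted p by limma 0.927). Of 12 markers of mature sensory neurons, 1 was higher in GFP+ cells in each arm and none was lower, whereas 8 of 8 neutrophil markers were lower, with mean log2 levels over the list between 5.06 and 6.30 in GFP+ samples and between 13.53 and 15.66 in GFP- ones. Markers of immature neurons (4 of 8), globose basal and dividing cells (5 of 5 measured), sustentacular cells (6 of 7) and microvillar cells (6 of 6) were also lower in GFP+ cells in both arms. Of these, Neurog1 of the globose basal and dividing list and Chat of the microvillar list had means under background in all 4 groups. So had Cngb1 of the mature neuron list. Omp and Stoml3 of that list had group means of 18.40 to 19.35, near the top of the values. Whether such levels can still show a difference was not tested. The part of all these cell types in the receptor values below was not tested. Pools numbered 3 stood apart in both arms: 3 Y-linked genes lay at 2.76 to 4.09 in their samples and at 6.42 or higher in all others.

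RefSeq gene order placed the members in 6 clusters, with receptor genes no more than 1 Mb apart joined. In this order, clusters 1 to 6 held 18, 4, 2, 24, 28 and 1 members. RefSeq lists 19, 8, 3, 26, 44 and 3 receptor genes in them, members included. Neighbours named below are thus consecutive members, and other receptor genes can lie between them. Most of cluster 1 is of family MOR256, and the first stretch of cluster 5 is of family MOR135. Lower in GFP+ cells in both arms were 9.26% of all genes and 21.4% of other odorant receptors. MOR255 and MOR275 each had 3 such members of 6, and MOR222 had 2 of 3. MOR135 had the largest number, 8 of 16, but not a larger share than these families. The 5 MOR135 members with a usable RefSeq promoter window, which lies before a gene model that does not begin at its start codon, are therefore shown, beside Olfr43, a MOR125 receptor of the same cluster that was higher in GFP+ cells. Each line holds the 250 bases before the RefSeq start, 5′ to 3′ on the minus strand, from mouse assembly GRCm38.p6. Capitals mark TAATGA, a homeodomain-type core, and GGGATGCAG, a stretch of 9 bases that 4 of these 5 MOR135 windows share and that was picked after the windows were read.
Olfr1, chr11:73399496-73399745: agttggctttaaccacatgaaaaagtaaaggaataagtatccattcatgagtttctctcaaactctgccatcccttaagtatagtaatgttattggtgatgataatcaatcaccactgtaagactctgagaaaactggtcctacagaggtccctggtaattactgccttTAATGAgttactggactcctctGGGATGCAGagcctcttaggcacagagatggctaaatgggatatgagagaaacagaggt
Olfr389, chr11:73780590-73780839: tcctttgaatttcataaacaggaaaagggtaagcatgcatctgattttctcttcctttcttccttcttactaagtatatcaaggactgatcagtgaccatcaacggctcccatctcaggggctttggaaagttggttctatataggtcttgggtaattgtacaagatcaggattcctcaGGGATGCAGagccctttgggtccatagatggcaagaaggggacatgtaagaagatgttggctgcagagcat
Olfr391, chr11:73802985-73803234: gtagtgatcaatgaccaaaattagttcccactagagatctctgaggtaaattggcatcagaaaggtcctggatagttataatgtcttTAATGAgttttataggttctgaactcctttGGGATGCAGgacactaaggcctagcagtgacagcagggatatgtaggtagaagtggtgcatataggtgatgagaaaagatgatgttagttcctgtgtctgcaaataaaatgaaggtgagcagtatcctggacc
Olfr392, chr11:73816878-73817127: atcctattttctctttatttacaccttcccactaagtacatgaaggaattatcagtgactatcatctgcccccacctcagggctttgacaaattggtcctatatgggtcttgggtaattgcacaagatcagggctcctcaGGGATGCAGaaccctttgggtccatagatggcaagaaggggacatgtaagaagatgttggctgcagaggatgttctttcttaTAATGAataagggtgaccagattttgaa
Olfr378, chr11:73428478-73428727: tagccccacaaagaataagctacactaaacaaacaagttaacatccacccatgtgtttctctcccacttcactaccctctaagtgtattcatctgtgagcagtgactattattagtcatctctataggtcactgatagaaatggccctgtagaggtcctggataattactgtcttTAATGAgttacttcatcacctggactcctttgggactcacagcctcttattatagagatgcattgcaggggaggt
Olfr43, chr11:74207290-74207539: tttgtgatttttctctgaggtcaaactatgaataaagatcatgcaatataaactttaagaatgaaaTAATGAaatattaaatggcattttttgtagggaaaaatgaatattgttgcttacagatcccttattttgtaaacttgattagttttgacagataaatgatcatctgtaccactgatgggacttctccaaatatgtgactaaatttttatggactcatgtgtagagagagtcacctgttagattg

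Of the MOR135 genes printed, Olfr1, Olfr389, Olfr391 and Olfr392 hold GGGATGCAG and were lower in GFP+ cells in both arms. Olfr378 lacks it and was called lower in vehicle pools only. The stretch was chosen as one that the windows of Olfr1, Olfr391 and Olfr392, all lower members, share. Its presence in them was thus fixed by the choice and tests no link with direction. It stood in 4 of 12 usable windows of lower members, 0 of 3 of higher members and 0 of 9 of the remaining ones. Among all 32851 promoter windows 0.435% hold the stretch on either strand. None of 235 usable windows of other odorant receptors holds it, though those of Olfr361, Olfr988 and Olfr600, whose gene models begin at the start codon, do. Windows of related neighbours share much of their sequence, so these 4 matches are not independent. TAATGA, searched on both strands, stood in 12 of 24 usable member windows (50.0%), in 70 of 235 windows of other receptors (29.8%) and in 8.59% of all windows. By direction it stood in 4 of 12 windows of members lower in GFP+ cells, 1 of 3 windows of higher members and 7 of 9 of the remaining ones. TAATTA, whose first bases are those of TAATGA, stood in 3 of the 24 member windows, TATAAA in 5 and CCCNNGGG in 1 (4.84%, 12.4% and 11.8% of all windows, both strands). These shares of 12.5%, 20.8% and 4.17% compare with 18.3%, 32.8% and 7.66% of the windows of other receptors. Usable windows exist for 23 members, because 44 of 68 member windows lie before a gene model that begins at its start codon and were left out of the motif search. A match describes these letters and not a bound site.

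The first question was which members the GFP sort separated, tested on the GFP+ minus GFP- difference within each pool. In odor pools 22 members were higher and 23 lower in GFP+ cells by limma at an adjusted p under 0.05, where 7.96% of all genes were higher and 10.6% lower. In vehicle pools 21 were higher and 26 lower, against 8.86% and 10.8% of all genes. Without the pool numbered 3 of the arm tested, these counts were 20 and 24 in odor and 23 and 21 in vehicle pools. The median difference of the members was -0.03 in odor and 0.12 in vehicle pools, beside 0.11 in both arms over all genes. The 1003 other odorant receptors were called higher in 44.5% in each arm and lower in 22.4% of odor and 24.9% of vehicle tests, with medians of 0.54 and 0.48. Centring each array on its receptor median raised the lower calls in odor pools from 23 to 35 and left 19 higher, which moved the share of higher calls from 48.9% to 35.2%. The members' medians turned with the scaling: they were -0.49 and -0.15 with receptor centring and 0.19 and 0.27 with centring on all probes.

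Called in both arms were 20 higher members (4.73% of all genes, 40.8% of other receptors) and 23 lower members (9.26% and 21.4%). The remaining 34 were not called in both arms, and 0 were called in opposite directions. Of the 20, 18 were higher in 8 of 8 pools, and of the 23, 22 were lower in 8 of 8. Both arms ordered the members alike, with r = 0.983 and rho = 0.969 over the 77 genes, which share probes and array type.

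**Figure D1:**
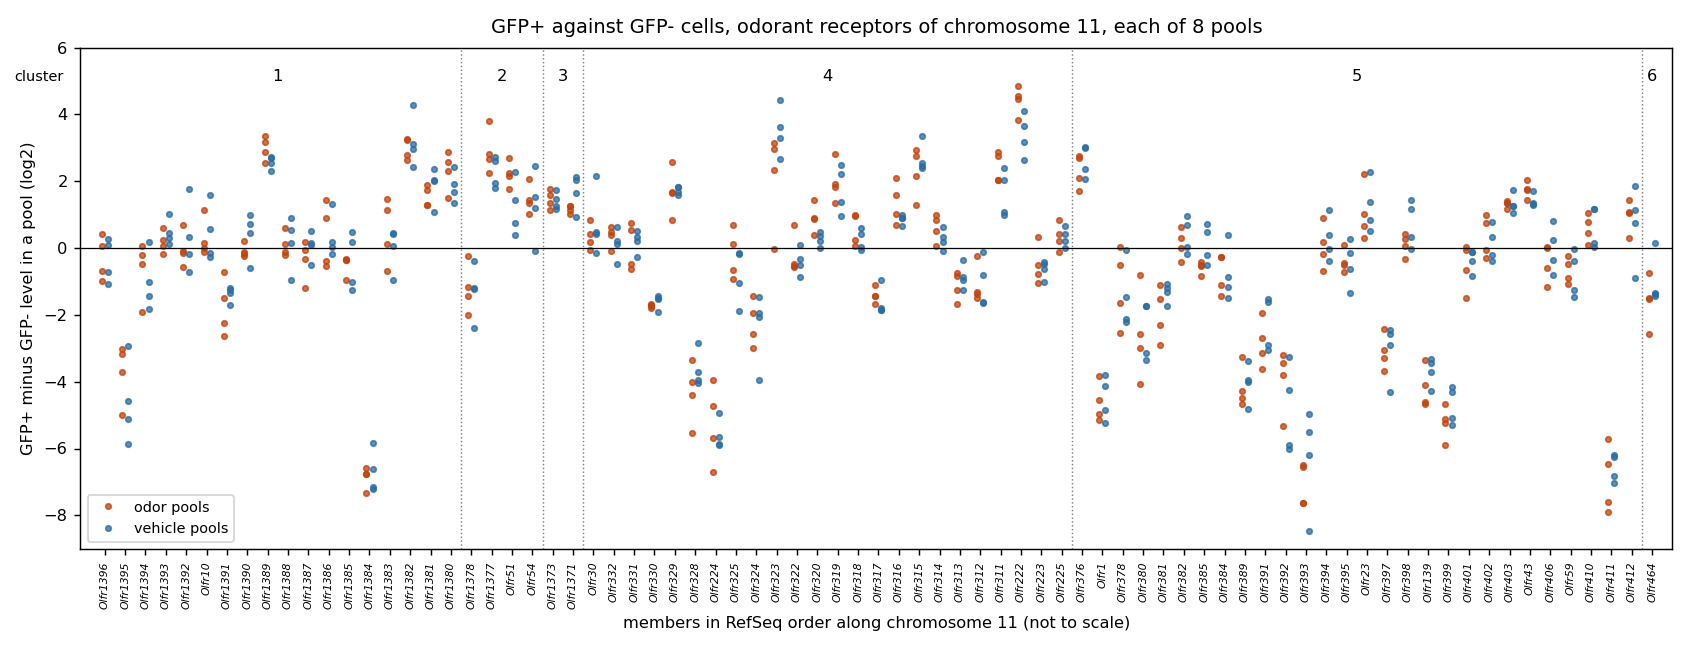
Points give the GFP+ minus GFP- difference (log2) of each of the 77 members in each of 8 pools, odor in orange and vehicle in blue, with members in chromosome order and dotted lines between the 6 clusters. Members far below 0, down to -6.79 for the mean of Olfr1384, lie next to members near or above 0, and both arms cover the same ranges.

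Olfr222, a MOR256 receptor of cluster 4, had the largest positive difference among the 77 by the mean of both arms. In vehicle pools alone Olfr323 differed by more, at 3.51. Levels of Olfr222 in odor pools 1 to 4 were 15.07, 15.09, 15.31 and 14.88 in GFP+ cells and 10.60, 11.25, 10.74 and 10.03 in GFP- cells. In vehicle pools they were 14.86, 14.82, 15.24 and 15.26 in GFP+ cells and 10.75, 11.64, 12.59 and 11.61 in GFP- cells. Every GFP+ sample lay above every GFP- sample, and the difference was 4.43 ± 0.23 in odor pools and 3.40 ± 0.23 in vehicle pools (SE, n = 4 pools each; adjusted p by limma 9.40e-08 and 8.18e-07), or 21.6-fold and 10.5-fold. Its neighbour Olfr223, of the same family, had a mean difference of -0.56, but lay under background in both fractions. Averaged over both arms by pool number, its levels were 3.59 to 3.75 in GFP+ and 3.93 to 4.45 in GFP- cells.

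Olfr1382 and Olfr1389, MOR256 receptors of cluster 1, were next by that mean among members higher in all pools. Olfr1382 lay at 12.10, 12.51, 11.66 and 12.08 in GFP+ and 9.31, 9.24, 8.42 and 9.45 in GFP- cells of odor pools. Vehicle pools gave 12.05, 12.90, 12.43 and 12.08 in GFP+ and 8.95, 8.63, 10.01 and 9.12 in GFP- cells. The fractions did not overlap, and Olfr1382 differed by 2.98 ± 0.25 in odor pools and 3.19 ± 0.25 in vehicle pools (adjusted p by limma 4.44e-06 and 2.60e-06). Olfr1389 lay at 11.55, 12.34, 12.36 and 12.10 in GFP+ and 8.99, 9.16, 8.99 and 9.22 in GFP- cells of odor pools. In vehicle pools it lay at 11.90, 11.96, 12.01 and 11.87 in GFP+ and 9.19, 9.27, 9.46 and 9.55 in GFP- cells. In both arms the fractions did not overlap, and it differed by 3.0 ± 0.15 in odor pools and 2.57 ± 0.15 in vehicle pools (adjusted p by limma 9.24e-08 and 3.14e-07). The promoter window of Olfr1382 is 90.8% identical to that of Olfr1373 in cluster 3, where the median over 2211 pairs among all 67 members with a RefSeq window, whatever their gene model, was 26.8%. Olfr1373 was also higher, by 1.46 ± 0.15 in odor pools and 1.41 ± 0.15 in vehicle pools, and whether their probes tell both genes apart was not tested. At the end of cluster 1, Olfr1381 (1.71) and Olfr1380 (2.08) were higher in 8 of 8 pools as well.

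In cluster 2, Olfr1377 (MOR129) lay at 7.01, 7.40, 7.67 and 7.92 in GFP+ cells of odor pools and, under background, at 4.77, 4.75, 3.86 and 5.12 in GFP- cells. With such values raised to the background median of their array the difference was at least 3.24-fold in odor and at least 2.69-fold in vehicle pools, where 1 GFP- sample was itself above background, and the fitted difference was 2.88 ± 0.24 in odor pools and 2.26 ± 0.24 in vehicle pools (adjusted p by limma 4.62e-06 and 3.36e-05). Its neighbour Olfr1378, of the same family, was called lower at -1.21 ± 0.31 in odor pools and -1.30 ± 0.31 in vehicle pools, but its mean lay under background in all 4 groups, so that no fold is given. That call was lost in odor pools without odor pool 1, 2 or 4 (limma adjusted p up to 0.0955) or with pools not paired (0.0510) and in vehicle pools without vehicle pool 2 (0.0643). Olfr51 and Olfr54 of the same cluster had mean differences of 1.72 and 1.38, and the vehicle call of Olfr54 was lost without vehicle pool 1 or 2 (adjusted p 0.0763 and 0.0685).

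Cluster 4 held a further 6 higher members. Olfr315 (MOR278) lay at 10.14, 10.18, 10.39 and 8.55 in GFP+ and 7.40, 8.04, 7.47 and 7.28 in GFP- cells of odor pools and differed by 2.27 ± 0.25 in odor pools and 2.69 ± 0.25 in vehicle pools. Olfr311 (MOR222) differed by 2.42 ± 0.25 in odor pools and 1.63 ± 0.25 in vehicle pools, with no overlap between its GFP+ levels (7.86 to 8.60) and its GFP- levels (5.47 to 7.60). Its family neighbours Olfr312 and Olfr313 were lower, at means of -1.08 and -0.99, and the promoter windows of Olfr311 and Olfr312 are 55.6% identical. Olfr319, Olfr329 and Olfr316 had means of 1.87, 1.71 and 1.10. Olfr323 (MOR107) had a mean of 2.81 but a gap in a single pool: GFP+ levels in odor pools were 7.95, 10.37, 4.10 and 8.11, against 9.77, 10.08, 9.71 and 9.13 in vehicle pools. In odor pool 3 its GFP- level was 4.13 as well, so that neither fraction of that pool was above background, and the GFP+ minus GFP- difference there was -0.03.

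**Figure D2:**
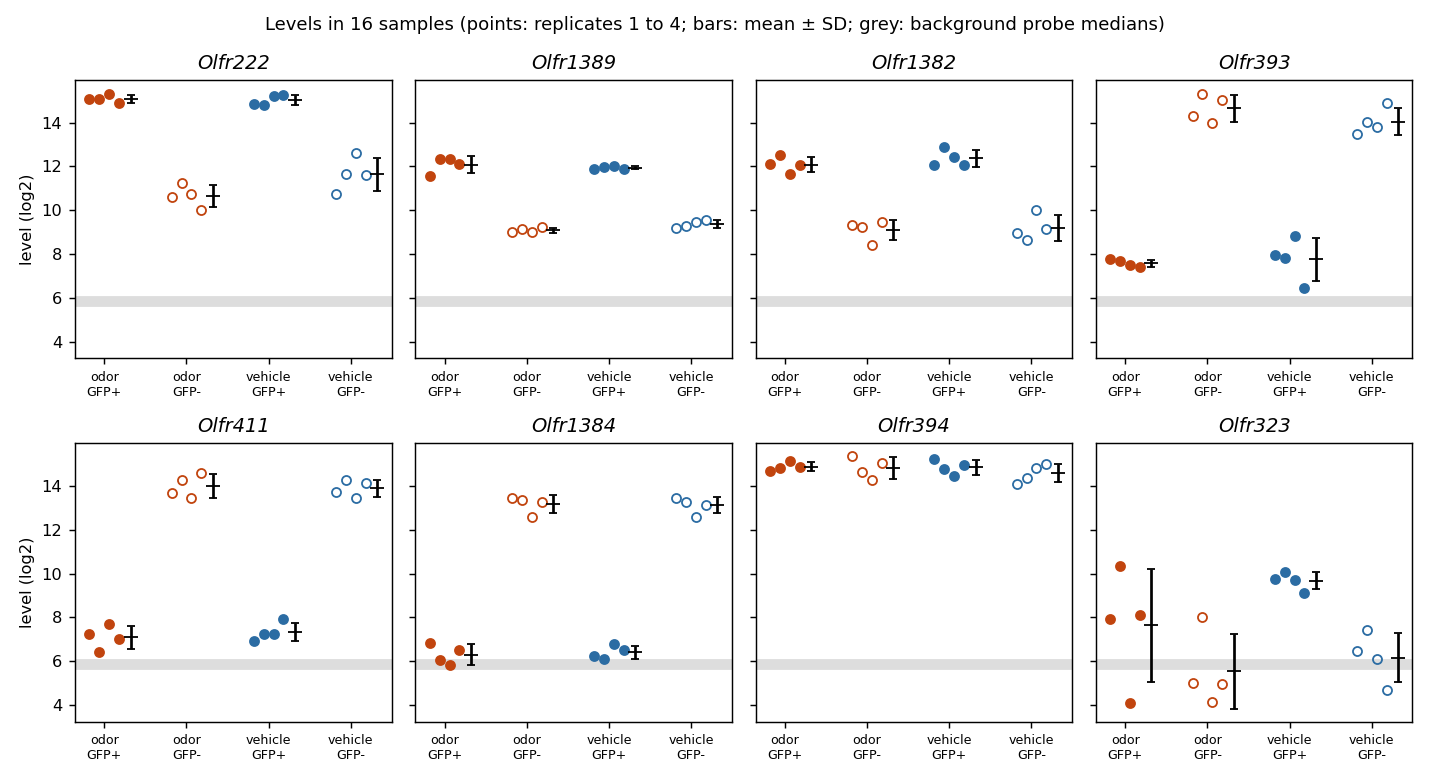
Log2 levels of 8 members in all 16 samples, filled points for GFP+ and open points for GFP- cells, with mean ± SD (n = 4) beside each group and the range of background probe medians in grey. Olfr222, Olfr1389 and Olfr1382 are higher and Olfr393, Olfr411 and Olfr1384 lower in GFP+ cells without overlap, Olfr394 overlaps at 14.10 to 15.38, and Olfr323 drops to 4.10 in odor pool 3.

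Lower in GFP+ cells by the widest margin, by the mean of both arms, was Olfr1384, a MOR256 receptor of cluster 1. In odor pools alone Olfr393 and Olfr411 differed by more. Olfr1384 lay at 13.44, 13.37, 12.57 and 13.28 in GFP- cells of odor pools and at 6.85, 6.03, 5.80 and 6.52 in their GFP+ cells, close to background. In vehicle pools it lay at 13.44, 13.27, 12.60 and 13.15 in GFP- and 6.22, 6.11, 6.76 and 6.52 in GFP+ cells, so that no samples of the fractions overlapped. The difference was -6.87 ± 0.22 in odor pools and -6.71 ± 0.22 in vehicle pools (adjusted p by limma 3.65e-09 and 4.30e-09). With GFP+ levels this close to background, the folds are bounds, at least 117-fold and 105-fold lower. Its neighbours on either side, Olfr1385 and Olfr1383, of the same family, had means of -0.45 and 0.25 and were not called. At the far end of this cluster Olfr1395 (MOR277) differed by -3.73 ± 0.42 in odor pools and -4.63 ± 0.42 in vehicle pools, next to Olfr1396 at a mean of -0.33.

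Olfr411 (MOR255) and Olfr393 (MOR135) of cluster 5 were close to Olfr1384 in their mean difference. Olfr411 lay at 13.68, 14.29, 13.43 and 14.61 in GFP- and 7.22, 6.40, 7.71 and 6.99 in GFP+ cells of odor pools. Its vehicle levels were 13.73, 14.27, 13.44 and 14.16 in GFP- and 6.92, 7.23, 7.26 and 7.92 in GFP+ cells. The fractions lay far apart in all pools, and Olfr411 differed by -6.92 ± 0.31 in odor pools and -6.57 ± 0.31 in vehicle pools (adjusted p by limma 3.02e-08 and 4.56e-08). Olfr393 lay at 14.32, 15.29, 13.97 and 15.05 in GFP- and 7.77, 7.66, 7.49 and 7.41 in GFP+ cells of odor pools. Vehicle levels of Olfr393 were 13.48, 14.03, 13.78 and 14.91 in GFP- and 7.96, 7.83, 8.80 and 6.45 in GFP+ cells. It differed by -7.08 ± 0.45 in odor pools and -6.29 ± 0.45 in vehicle pools (adjusted p by limma 4.73e-07 and 1.30e-06). Next to Olfr393, Olfr394 of the same family lay at 14.68, 14.81, 15.16 and 14.85 in GFP+ and 15.38, 14.62, 14.26 and 15.04 in GFP- cells of odor pools, fractions that overlapped. The sign of its difference in odor pools, 0.05 ± 0.27, turned without odor pool 3 and with receptor centring.

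Among the remaining members of lowest difference, GFP+ levels lay at or under background, so that folds are bounds. Olfr224 (MOR275, cluster 4) lay at 9.58, 10.48, 9.96 and 10.70 in GFP- and 5.65, 5.76, 4.27 and 3.99 in GFP+ cells of odor pools, at least 19.5-fold lower there and at least 28.5-fold in vehicle pools. Olfr399 (MOR255) lay at 9.38, 9.94, 9.74 and 10.43 in GFP- and 4.72, 4.82, 4.49 and 4.55 in GFP+ cells of odor pools, at least 15.8-fold and 13.2-fold lower. Olfr1 (MOR135) lay at 10.20, 10.36, 9.88 and 9.66 in GFP- and 6.36, 5.38, 5.33 and 4.52 in GFP+ cells, with 1 GFP+ sample in each arm above background, and was at least 15.9-fold and 19-fold lower. In vehicle pools GFP+ levels of these 3 genes ran from 4.58 to 5.43, 4.66 to 5.11 and 5.37 to 6.32, and none reached its GFP- levels. Adjusted p by limma was at most 7.37e-07 in either arm for these 3 genes. Olfr392, by contrast, stayed above background in GFP+ cells, at 10.31, 9.60, 8.58 and 8.35 in odor pools, and was at 13.52, 13.05, 12.39 and 13.66 in GFP- cells. In all, 11 of the 23 lower members had a GFP+ mean under background in both arms, 2 of the 20 higher members had such a GFP- mean, and 7 members were under background in all 4 groups.

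By family, MOR135 (16 members) had 8 lower, 2 higher and 6 in neither class, and a median of -1.48 that ran from -2.18 to -0.62 over the 8 pools. Its lower members Olfr389, Olfr391, Olfr392 and Olfr393 follow each other among the members. Olfr376 at the edge of the cluster was higher instead, at a mean of 2.46. All 8 of its GFP- values lay under background, which leaves at least 1.58-fold and 1.66-fold. MOR255 (6) had 3 lower and 0 higher with a median of -2.19, and MOR275 (6) had 3 lower and 1 higher. MOR256 (20) was mixed, with 5 higher, 3 lower and a median of 0.20. Medians this near 0, also those of clusters 1 and 4, lie within the shift from 0.11 to -0.34 that receptor centring gave the median of all genes in odor pools. The family's range from -6.79 to 3.91 was the whole range of the 77. The 28 MOR256 genes on chromosomes 13, 16 and 17 had 10 higher and 6 lower, with a median of 0.56. MOR285 (4) had 2 higher and 0 lower, and both MOR125 genes, Olfr403 and Olfr43, were higher, at means of 1.32 and 1.58.

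**Figure D3:**
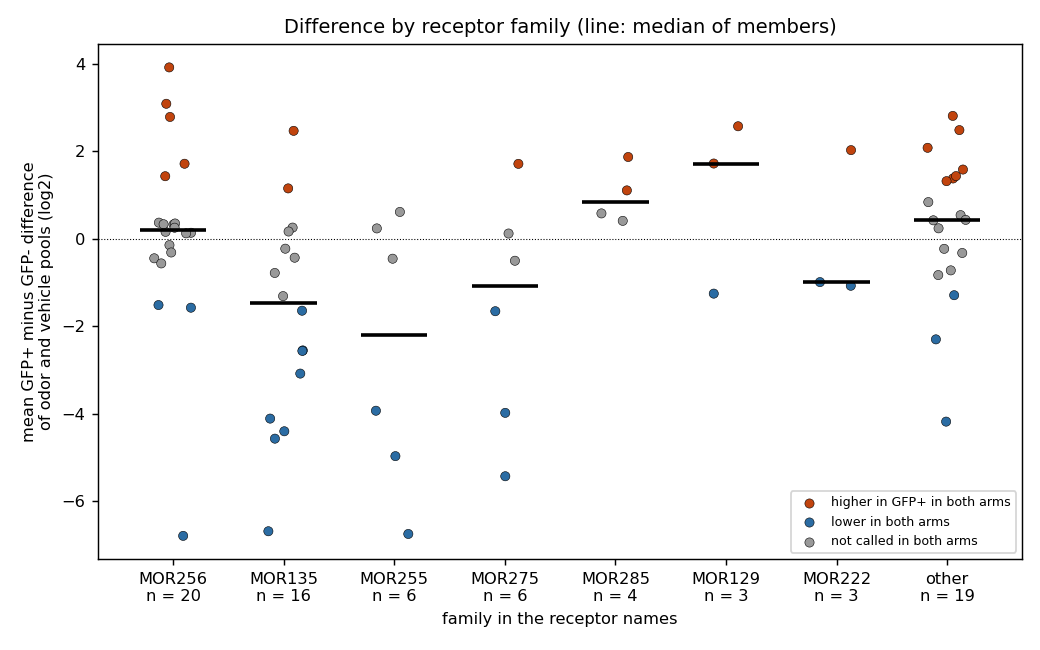
Each point is the mean GFP+ minus GFP- difference (log2, both arms) of 1 member, by family, coloured by its call in both arms, with the family median as a line. The medians of MOR135 (-1.48) and MOR255 (-2.19) lie below 0 and that of MOR256 (0.20) near it.

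By cluster, cluster 5 had 4 higher and 11 lower members of 28 and a median of -0.59, cluster 4 had 7 and 7 of 24 (0.28), and cluster 1 had 4 and 3 of 18 (0.15). Clusters 2 and 3 had 3 and 2 higher members of 4 and 2, and the single member of cluster 6, Olfr464, was lower, a call that in vehicle pools (adjusted p 0.0407) was lost under 7 alternatives, with adjusted p up to 0.156. Neighbours, here consecutive members of a cluster, were often unlike. Over 71 such adjacent pairs the median gap in mean difference was 1.77, and over all 2926 pairs of members it was 1.96. Adjacent pairs of the same family (48 pairs, 1.75) had a median gap close to that of the remaining adjacent pairs (23 pairs, 1.80). Those remaining pairs are of other families or hold a member without a family name. The 7 members under background in all 4 groups entered these gaps, with levels that are not above background. The widest gaps were 7.58 between Olfr411 and Olfr412, 7.36 between Olfr410 and Olfr411 and 7.04 between Olfr1384 and Olfr1383. The correlation of adjacent members was 0.19 over the 71 pairs, which overlap in their genes.

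The second question was whether odor changed these differences. By limma 0 of 77 members passed in the odor minus vehicle difference of enrichment, where 0 genes of 19505 passed (0%), and 6 members had an unadjusted p under 0.05, 4 higher (Olfr222, Olfr51, Olfr320 and Olfr311) and 2 lower (Olfr323 and Olfr385; 1.84% and 1.52% of all genes). In GFP+ cells alone 0 members passed and 0 genes (0%), with Olfr51 higher and Olfr380 lower at an unadjusted p under 0.05 (2.9% and 2.59% of all genes). In GFP- cells 0 members and 1 gene (0.00513%) passed, with Olfr385 higher and Olfr222 lower before adjustment (2.05% and 1.53%). At the same unadjusted threshold, 52 of the 1003 other odorant receptors were higher and 16 lower in the enrichment difference. For them these counts were 52 and 23 in GFP+ cells and 18 and 23 in GFP- cells. The 3 comparisons share samples, so the same gene can stand in each.

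Olfr222 had the smallest p of the members in the enrichment difference, 1.04 ± 0.32 (unadjusted p = 0.00828, adjusted p = 1 by limma). Its GFP+ levels overlapped between arms, and its GFP- levels differed by -1.0 ± 0.36 (adjusted p = 1 by limma). Odor GFP- levels were 10.03 to 11.25 and vehicle GFP- levels 10.75 to 12.59, which overlap. Olfr51 (MOR129) lay at 8.28, 8.31, 8.29 and 8.50 in GFP+ cells of odor pools and 6.84, 8.36, 8.0 and 7.67 in those of vehicle pools, where pool 2 lay within the odor range. Its enrichment difference was 1.01 ± 0.37 and its GFP+ difference 0.63 ± 0.27 (adjusted p by limma 1 and 0.892).

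Olfr320 (MOR285) had an enrichment difference of 0.63 ± 0.23 and Olfr311 of 0.78 ± 0.35, both with an adjusted p of 1. In the other direction stood Olfr385 (MOR135), at -0.69 ± 0.28, whose mean was under background in all 4 groups, and Olfr1371, at -0.52 ± 0.26. Olfr323 was at -1.41 ± 0.62, a value that became -0.70 without odor pool 3. Its level in GFP+ cells differed by -2.04 ± 0.99, and 0.91 was the adjusted p by limma. In GFP+ cells Olfr380 lay at -0.48 ± 0.18 (adjusted p by limma 0.891), with its GFP+ means under background in both arms, Olfr1391 at -0.71 ± 0.34 and Olfr402 at 0.45 ± 0.21. Blocking by the number that an odor and a vehicle pool share changed none of the 3 counts.

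**Figure D4:**
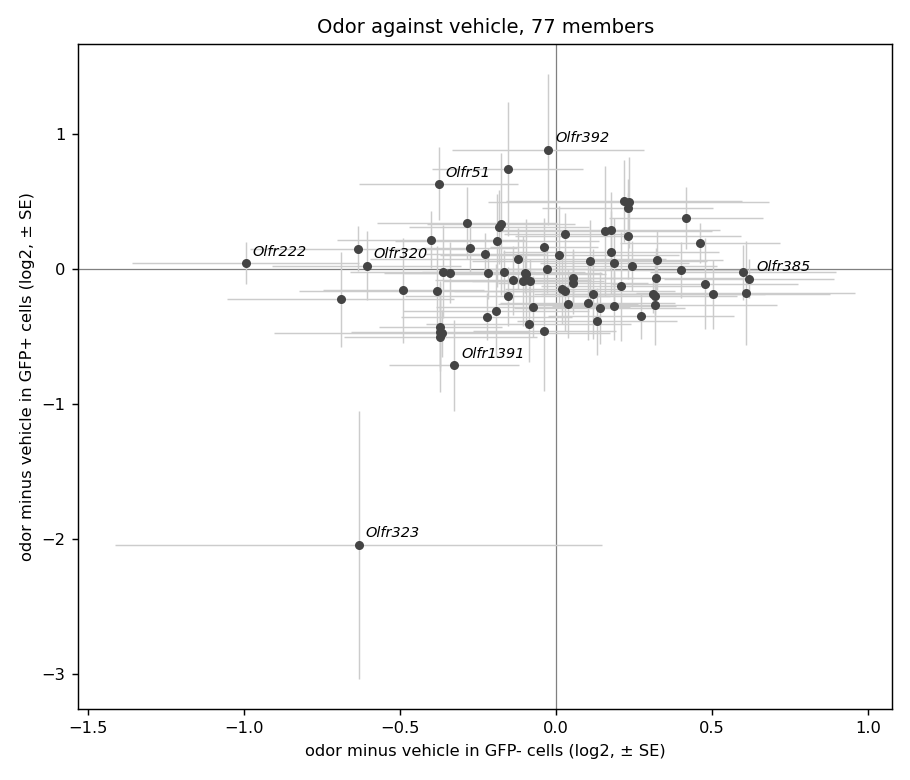
Odor minus vehicle differences (log2, ± SE, 4 samples an arm) of the 77 members in GFP- cells (horizontal) and GFP+ cells (vertical). Olfr222 lies at -1.0 in GFP- cells and Olfr323 at -2.04 in GFP+ cells, and no point passed the adjusted test.

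Levels also varied between pools that share a number, which was tested after the values had been seen. A limma F test of the number, with the arm as a term, called 1 member in GFP+ cells (0.133% of all genes), 0 in GFP- cells (0.559%) and 2 in the mean of both fractions (0.487%). At an unadjusted p under 0.05 the members were 31, 19 and 28 of 77, against 8.07%, 12.4% and 11.3% of all genes and 33%, 32% and 35.5% of other receptors. Olfr1383 (MOR256) had mean GFP+ levels of 9.26, 9.55, 7.50 and 9.44 in pools numbered 1 to 4 (adjusted p = 0.0375) and an adjusted p of 0.0250 in the mean of both fractions. It was lowest in the pools numbered 3 of both arms, at 7.65 and 7.36 in GFP+ cells. These are the pools with Y-linked genes at 2.76 to 4.09, and number and Y-linked level cannot be told apart here. Olfr319 (MOR285) was highest in the pools numbered 2, with a mean of both fractions of 10.30 against 9.03 to 9.16 in the others (adjusted p = 0.0330). Olfr392 did not pass in any of the 3 tests (adjusted p = 0.0739 in GFP+ cells).

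**Figure D5:**
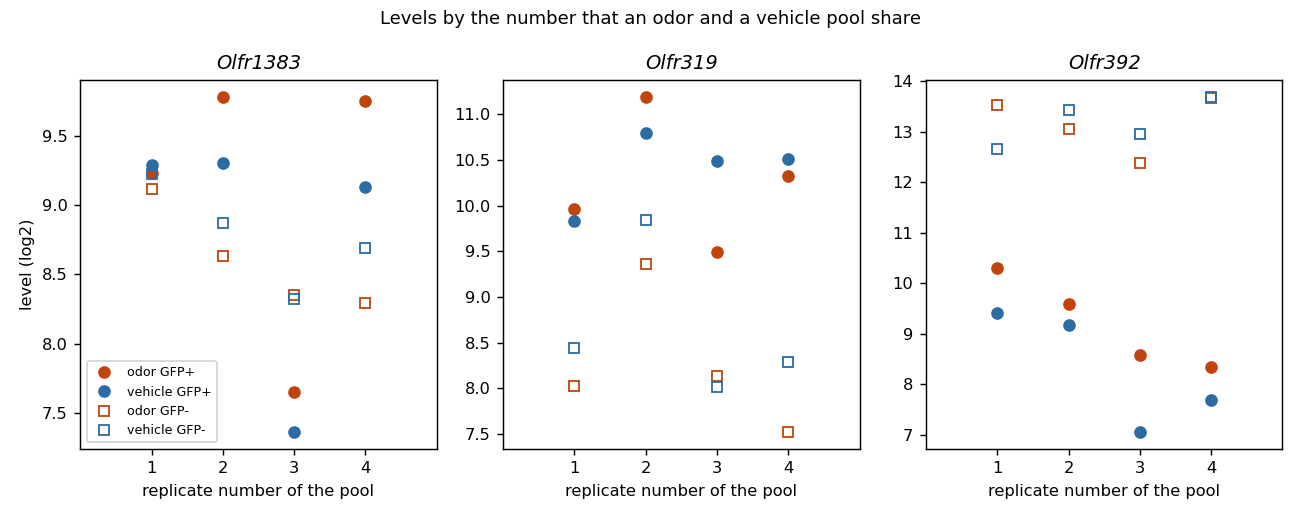
Log2 levels of 3 members against the number shared by an odor and a vehicle pool (filled, GFP+; open, GFP-). Olfr1383 lies at 7.36 and 7.65 in GFP+ cells of the pools numbered 3, Olfr319 is highest in those numbered 2, and GFP+ levels of Olfr392 span 7.05 to 10.31.

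The proteins that neurons use to choose a receptor gene and to bring its product to the cilia were looked at beside the members. Of 23 such genes, among them Lhx2, Ldb1 and the Ebf factors that bind receptor enhancers and promoters, Lbr and Kdm1a of heterochromatin, and the chaperones Rtp1 and Rtp2, 0 were higher and 1, Lbr, lower in GFP+ cells in each arm. Lbr, the lamin B receptor, differed by -1.62 ± 0.18 in odor and -1.71 ± 0.18 in vehicle pools. Markers of neutrophils and of other cell types were also lower in GFP+ cells, and the part of those cells in the Lbr difference was not tested. The median differences of the 23 were 0.07 and 0.17, beside 0.11 over all genes. With odor, 0 of the 23 passed in any of the 3 comparisons.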

How the data were processed

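The authors deposited log2 values of 16 Clariom S arrays made with Affymetrix Expression Console, per the submitters' processing notes; the sources used here do not give its version, background correction, normalization or summarization. The log2 scale is inferred from values of about 2 to 19. Probes were named through the platform annotation (19572 of 28846 with 1 symbol), and of several probes of a gene the brightest stood for it (55 genes, 0 members).

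Members and gene lists were chosen with earlier results of these data known. The 41 members named by rule were those of most extreme difference in both arms, those of smallest p in each odor comparison, cluster ends, the member of highest level in each cluster and fraction (used only to choose names), and the widest neighbour gaps; others named were chosen after their values were seen. Protein identities were not used here, and 1 receptor that the rule leaves out is not reported.

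Tests used limma 3.58.1 (lmFit, eBayes) in R 4.3.3: the enrichment within each arm and its difference on 8 within-pool differences, and odor against vehicle in 8 GFP+ or 8 GFP- samples, with Benjamini-Hochberg adjustment over 19505 genes and a threshold of 0.05. P-values are two-sided and measure the spread between pools of 3 mice; the number of arrays limits the precision. SE come from the fit. Pools were matched by the codes in their titles; the titles number 2 vehicle pools 3, and the one with the later code was numbered 4. Deviations of same-numbered GFP+ samples correlated at 0.114 to 0.242, those of GFP- samples at 0.0664 to 0.332 and those of within-pool differences at 0.0974 to 0.305. The main fits did not pair odor and vehicle pools by number. A block by number was an alternative for the odor comparisons. The fits were also run on simulated data with independent noise in each array and changes in odor GFP+ samples only. Those data hold no spread shared within a pool, so they cannot test the pairing of fractions. Alternatives were other scalings, a filter on dim probes, averaging of probes, a trended prior, unpaired pools and leaving out each pool.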

Additional observations from a re-analysis of the deposited data

Results flagged for a closer look

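In 4 of 92 groups of 4 examined, the highest or lowest value stood far from the other 3, where about 1 in 20 would by chance, or 4.6. The GFP+ minus GFP- difference of Olfr315 was 3.361 in vehicle pool 3 and 2.393 to 2.555 in the other vehicle pools. Olfr464 had a difference of 0.1638 in vehicle pool 1 against -1.444 to -1.333 in the others, so that this pool alone was not lower in GFP+ cells. Olfr51 lay at 8.5 in GFP+ cells of odor pool 4 and at 8.276 to 8.309 in the other odor pools, a narrow group in which a small step stands out. The GFP- level of Olfr381 was 7.94 in odor pool 4 and 6.559 to 6.723 in the other odor pools.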

How the results depend on the processing

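Over the alternatives the members called numbered 19 to 27 higher and 21 to 35 lower in odor pools, 18 to 24 higher and 21 to 30 lower in vehicle pools, and 0 in each of the odor comparisons. The 35 came from centring on the receptor median, which shifted the median difference of all genes in odor pools from 0.11 to -0.34; centring on the median of all probes shifted it to 0.34. With the replicate number as a block, 0 members were called in the enrichment difference, in GFP+ and in GFP- cells, and no call changed. Leaving out odor pool 3 gave 20 higher and 24 lower members in odor pools. Small differences changed sign. With receptor centring, odor differences became -0.1148 (Olfr30), -0.1154 (Olfr225) and -0.4069 (Olfr394). With median centring they became 0.1894 for Olfr1392 in odor and 0.1471 for Olfr1383 in vehicle pools. Without 1 pool at a time, odor differences ran from -0.2302 to 0.3024 (Olfr394) and from -0.2733 to 0.1462 (Olfr1392), and vehicle differences from -0.01296 to 0.5008 (Olfr394), -0.1514 to 0.315 (Olfr1383) and -0.1839 to 0.6479 (Olfr1392). Among named members 1129 values kept direction and side of the threshold, 14 lost their call (Olfr1378, Olfr54 and Olfr464) and 10 gained one (Olfr225, Olfr410, Olfr412 and Olfr30). The filter on dim probes kept 70 members of 11824 genes. The cause of these changes was not tested. Members near background have no reliable fold.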
